A study of Mus musculus with 9 samples.

Results

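A set of 10 plasma-protein genes of the hepatic acute-phase response was followed across 9 mouse liver libraries: Saa1, Saa2, Saa3, Saa4, Orm1, Orm2, Hp, Lcn2, Lbp and Crp. They were taken from a list of gene symbols and are 10 of the 23337 genes in the count table. All 10 passed the filter on low counts, which kept 13141 genes. Polyadenylated RNA of the livers was sequenced with a stranded protocol, and every mouse was of the C57BL/6 strain and had eaten a high-fat diet (HFD) for 16 weeks from an age of 6 to 8 weeks. The WT group holds 3 mice with the PAR2fl/fl genotype, which carry floxed alleles of the gene for protease-activated receptor 2 (PAR2, gene F2rl1), a cell-surface receptor that proteases activate by cleavage. The dHep group holds 3 PAR2dHep mice, in which the receptor was removed from hepatocytes, and the KO group holds 3 mice described as whole-body PAR2 knockouts. The labels give neither the Cre driver of the dHep mice nor the way the KO allele was made, and they do not say whether littermates were used. No group on another diet was analysed here, so every comparison is one of genotype under HFD.

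The acute-phase response is the change in plasma proteins that the liver makes within hours of infection or injury. Interleukin 6 acts on hepatocytes through the receptor subunit gp130 and the transcription factor STAT3, while interleukin 1 and tumour necrosis factor act through NF-kB, and C/EBP factors take part in both. Proteins whose synthesis rises are called positive acute-phase proteins and those whose synthesis falls, such as albumin, are called negative ones. Fatty liver and obesity are known for a mild, lasting form of this response.

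Reads assigned to genes ran from 18683660 to 30509242 per library. F2rl1 was counted at 17, 27 and 28 reads across WT, at 2, 8 and 0 reads in dHep and at 71, 103 and 76 reads in the KO-labelled libraries. The count of 0 allows up to 0.147 CPM, the reads per 1e+06 assigned reads with scaled library sizes (3 reads, counting error only). F2rl1 was lower in dHep than in WT (log2 fold change -2.73 ± 0.66 SE, edgeR adjusted p = 0.0164) and higher in the KO-labelled libraries than in WT (2.22 ± 0.51, edgeR adjusted p = 0.00735). The level in the KO group therefore goes against its label. The table counts whole genes and the labels do not say which part of the gene was disrupted, so these reads cannot be assigned to an intact or a disrupted transcript. Hepatocyte markers, summed over 10 genes, were high in every library but lowest across WT. They reached 106133 to 111837 CPM in WT, 113203 to 164773 CPM in dHep and 114809 to 129666 CPM in the KO-labelled libraries. Transcripts of pancreatic acinar enzymes, summed over 13 genes, reached 493 CPM in WT replicate 1 and 1924 CPM in dHep replicate 2 against 12.6 to 84.8 CPM in the other libraries, and dHep replicate 2 also held 556 CPM of skeletal muscle markers against at most 48.8 CPM elsewhere. Results below were therefore also computed without these libraries.

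The members lie in a few places of the genome (build mm10). The serum amyloid A genes form a cluster of 42.3 kb on chromosome 7, with Saa3 at chr7:46711998-46715676, Saa4 at chr7:46727999-46732543 and Saa1 at chr7:46740499-46742980 on the minus strand and Saa2 at chr7:46751833-46754314 on the plus strand, so that Saa1 and Saa2 point away from each other across 8.9 kb. The orosomucoid genes span 21.3 kb on the plus strand of chromosome 4, with Orm1 at chr4:63344566-63348162, Orm3 at chr4:63356162-63359511 and Orm2 at chr4:63362449-63365877. Hp lies at chr8:109575128-109579172, Lcn2 at chr2:32384637-32387739, Lbp at chr2:158306493-158332852 and Crp at chr1:172698056-172699966. Reads were counted over exons, of which the table lists 2 blocks in Crp and 15 in Lbp. Family members are alike in sequence: of the stretches of 50 bases in the Saa1 transcript, 13.2% also occur in Saa2, and of those in Orm1, 20.4% also occur in Orm2, whereas Saa4 shares none with the other serum amyloid A genes. The counting command names no option for reads that map to several places, so counts of Saa1, Saa2, Orm1 and Orm2 are uncertain to the extent that such reads were dropped or misplaced.

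Promoter sequences are given for the members with a promoter window that were called in dHep against WT: Saa1, Saa2, Orm2 and Lcn2, which were lower, and Saa4, which was higher. Each is the 250 bases before the RefSeq transcription start (GRCm38.p6), 5′ to 3′ on the strand of the gene, from chr7:46742981-46743230 (minus strand) for Saa1, chr7:46751583-46751832 (plus) for Saa2, chr7:46732604-46732853 (minus) for Saa4, chr4:63362199-63362448 (plus) for Orm2 and chr2:32387740-32387989 (minus) for Lcn2. Capitals mark matches on either strand to the C/EBP motif TTNNGCAA and, in Orm2, to the TATA box TATAAA as well.
Saa1: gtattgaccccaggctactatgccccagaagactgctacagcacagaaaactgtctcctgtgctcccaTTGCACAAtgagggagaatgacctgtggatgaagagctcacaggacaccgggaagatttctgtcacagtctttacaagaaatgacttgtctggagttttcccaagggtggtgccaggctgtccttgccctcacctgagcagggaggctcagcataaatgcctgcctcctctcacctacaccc
Saa2: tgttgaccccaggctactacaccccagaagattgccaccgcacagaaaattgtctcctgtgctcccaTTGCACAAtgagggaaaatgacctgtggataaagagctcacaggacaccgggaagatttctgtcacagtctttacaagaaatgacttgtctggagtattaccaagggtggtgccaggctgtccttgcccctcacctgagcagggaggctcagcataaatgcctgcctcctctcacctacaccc
Saa4: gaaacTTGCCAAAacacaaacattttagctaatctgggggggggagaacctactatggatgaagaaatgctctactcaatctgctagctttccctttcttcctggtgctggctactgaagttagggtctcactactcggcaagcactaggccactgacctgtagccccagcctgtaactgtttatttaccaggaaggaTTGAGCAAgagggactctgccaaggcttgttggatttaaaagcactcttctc
Orm2: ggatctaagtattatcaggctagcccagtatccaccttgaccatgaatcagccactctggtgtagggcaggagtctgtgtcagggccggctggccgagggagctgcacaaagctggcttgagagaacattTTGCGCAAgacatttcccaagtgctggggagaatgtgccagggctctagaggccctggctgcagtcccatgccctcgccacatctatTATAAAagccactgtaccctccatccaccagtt
Lcn2: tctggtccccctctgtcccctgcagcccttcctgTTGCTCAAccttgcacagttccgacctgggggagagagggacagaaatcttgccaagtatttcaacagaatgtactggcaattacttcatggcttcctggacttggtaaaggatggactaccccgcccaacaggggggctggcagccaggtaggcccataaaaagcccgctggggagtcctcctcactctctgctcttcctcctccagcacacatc

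A window was found for 7 of the 10 members. The C/EBP motif was matched in 6 of these 7 (Saa1, Saa2, Saa3, Saa4, Orm2 and Lcn2, not Crp), against 9.57% of all 32841 RefSeq windows of the same length. The match lies at position -182 from the start in Saa1 and at -183 in Saa2, with the same letters. The Saa1 and Saa2 windows are 94.8% identical over their alignment, whereas those of Saa1 and Saa4 are 42.6% identical. The Saa4 window begins from a RefSeq start that lies 60 bases upstream of the gene's start in the count table. The STAT3 motif TTCNNNGAA (7.02% of all windows), the NF-kB motif GGGNNTTNC (13% of all windows) and the HNF4A motif CAAAGTCCA (0.384%) were matched in none of the 7 windows. TATAAA, present in 12.4% of all windows, was matched in Orm2 and Crp. None of these motifs overlaps another within the 5 sequences shown.

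In dHep against WT, 5 of the 10 members fell (Saa1, Saa2, Orm2, Lcn2 and Lbp), where 11.9% of all genes tested were called lower, and 1 rose (Saa4), where 12.4% were called higher. In the KO-labelled libraries against WT, 3 fell (Saa2, Orm2 and Lcn2), against 22.1% of all genes, and 1 rose (Saa4), against 20.9%. In the KO-labelled libraries against dHep, 3 rose (Saa3, Lcn2 and Lbp), against 4.23% of all genes, and 0 of 10 fell, against 5.39%. The members' median log2 fold change was -0.70 in the first comparison, -0.03 in the second and 0.61 in the third, beside 0.02, -0.01 and -0.02 over all genes tested. Without WT replicate 1 and dHep replicate 2, 4 members fell and 1 rose in the first, 4 fell and 1 rose in the second, and 2 rose and 0 fell in the third. Of 13154 genes tested without these libraries, 1441 fell and 1399 rose in the first, 2621 fell and 2422 rose in the second, and 230 rose and 265 fell in the third. The comparisons share groups, so they are not independent of each other. In whole liver, fewer cells of a type and less RNA per cell cannot be told apart. The plot of fitted changes by comparison sets out the direction and SE of each gene.

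**Figure D1:**
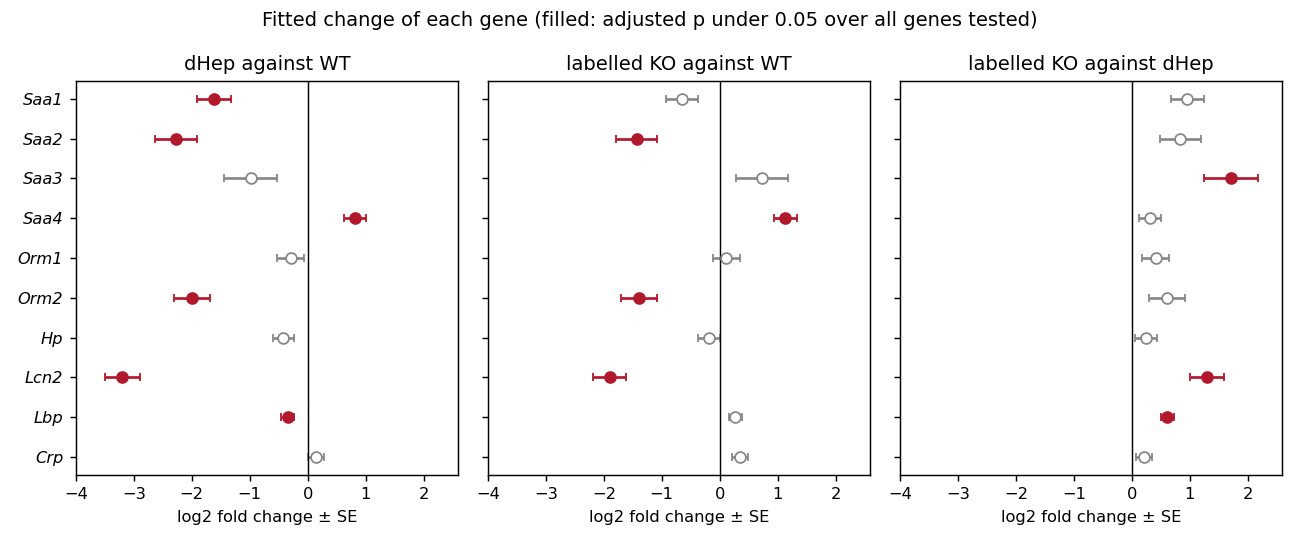
Fitted log2 fold change (horizontal axis) of the 10 acute-phase genes (vertical axis) in dHep against WT, in the KO-labelled libraries against WT and in the KO-labelled libraries against dHep; bars are SE and filled points have an edgeR adjusted p under 0.05 over all 13141 genes. Lcn2 has the lowest value in the first panel at -3.20, and Saa4 is the filled point to the right of 0 in the first and second panels.

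Saa1 and Saa2 encode the inducible serum amyloid A proteins, small apolipoproteins that ride on high-density lipoprotein during inflammation. Saa1 was at 193, 271 and 161 CPM in WT, 51.5, 101 and 52.5 CPM in dHep and 106, 140 and 152 CPM in the KO-labelled libraries. Every dHep library lay below every WT library and every library labelled KO, and the KO-labelled libraries also lay below those of WT. Saa1 fell in dHep (log2 fold change -1.61 ± 0.29, edgeR adjusted p = 0.00512) to 32.7% of the WT mean. The difference between the KO-labelled libraries and WT was -0.65 ± 0.28 (edgeR adjusted p = 0.0891), and that between the KO-labelled libraries and dHep was 0.96 ± 0.29 (edgeR adjusted p = 0.0638). Saa1 passed the threshold in 6 of 17 alternative analyses of the former difference and in 4 of 17 of the latter, dHep replicate 2 left out among them (edgeR adjusted p = 0.0254 and 0.0161). The former compares no dHep library: without dHep replicate 2 it stayed at -0.65 and its SE fell to 0.20. The fit shares its estimate of the spread over all groups.

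Saa2 was at 86.8, 147 and 73.0 CPM in WT, 17.4, 31.4 and 15.01 CPM in dHep and 24.7, 44.9 and 44.3 CPM in the KO-labelled libraries. WT libraries stood above all others, and the other groups overlapped each other. Saa2 fell in dHep (log2 fold change -2.27 ± 0.36, edgeR adjusted p = 0.00322) and in the KO-labelled libraries (-1.43 ± 0.35, edgeR adjusted p = 0.0104). The change between the KO-labelled libraries and dHep was 0.84 ± 0.35 (edgeR adjusted p = 0.156). Reads per kilobase of Saa1 exceeded those of Saa2 by 2.11 ± 0.22 times in WT (SD, n = 3), 3.24 ± 0.27 times in dHep and 3.64 ± 0.62 times in the KO-labelled libraries, and the WT ratios did not overlap those of the other groups.

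Saa3 is known in mice as a serum amyloid A gene that macrophages and adipocytes also express under inflammation. It was at 10.4, 11.97 and 6.56 CPM in WT, 3.96, 6.79 and 3.87 CPM in dHep and 5.82, 23.9 and 18.0 CPM in the KO-labelled libraries. The dHep libraries overlapped both other groups, and KO replicate 1 lay within the dHep range while the other libraries of that label were above every WT library. Saa3 was higher in the KO-labelled libraries than in dHep (log2 fold change 1.71 ± 0.47, edgeR adjusted p = 0.0490), a call that was lost in 12 of 17 alternatives (edgeR adjusted p = 0.169 without KO replicate 2 and 0.137 without KO replicate 3). Against WT, the difference was -0.98 ± 0.46 in dHep (edgeR adjusted p = 0.148) and 0.72 ± 0.45 in the KO-labelled libraries (edgeR adjusted p = 0.214), and without KO replicate 1 these were -0.98 (edgeR adjusted p = 0.0405) and 1.14 (edgeR adjusted p = 0.0193). That library is in neither dHep nor WT: the dHep difference did not move, and only its SE fell, to 0.29. The macrophage markers, 15 of 16 of which were in the table, summed to 362 to 461 CPM in WT, 206 to 352 CPM in dHep and 99.1 to 176 CPM in the KO-labelled libraries, and the 6 adipocyte markers to 11.8 to 15.2, 15.8 to 32.1 and 11.4 to 14.7 CPM. Their part in the Saa3 level was not tested.

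Saa4 encodes the constitutive member of the family, which the liver makes without an inflammatory stimulus. It was at 406, 390 and 311 CPM in WT, 476, 663 and 812 CPM in dHep and 766, 760 and 903 CPM in the KO-labelled libraries. Every WT library lay below every library of the other groups, which overlapped each other. Saa4 rose in dHep (log2 fold change 0.82 ± 0.20, edgeR adjusted p = 0.0160) and in the KO-labelled libraries (1.13 ± 0.20, edgeR adjusted p = 0.00205). The dHep call was lost without WT replicate 2 (edgeR adjusted p = 0.0538) or WT replicate 3 (edgeR adjusted p = 0.0775). The libraries labelled KO and dHep differed by 0.32 ± 0.19 (edgeR adjusted p = 0.313).

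**Figure D2:**
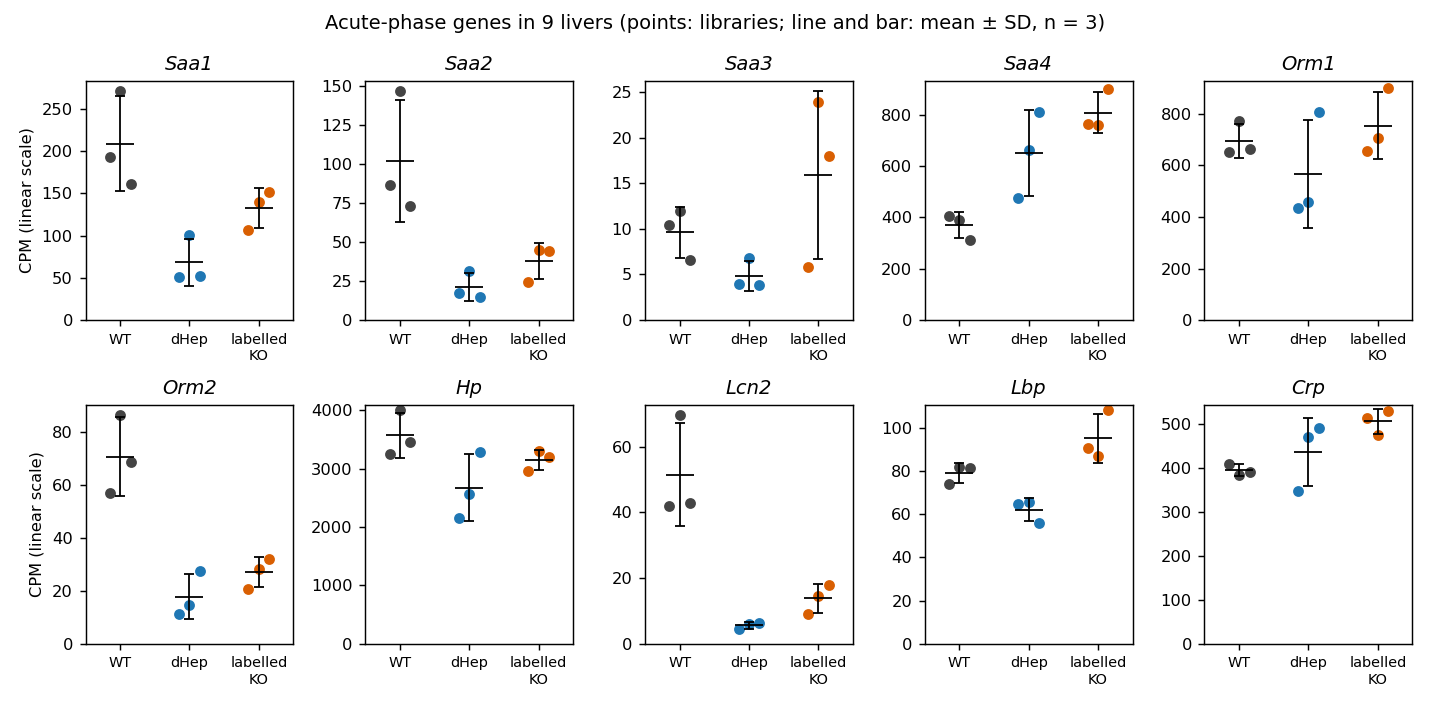
Level of each gene in CPM (vertical axes, linear, from 0) in the 3 WT, 3 dHep and 3 libraries labelled KO; points are libraries in replicate order, and the line and bar are the mean and SD. The WT points of Saa2, Orm2 and Lcn2 lie above all others, and those of Saa4 lie below all others.

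The make-up of the serum amyloid A family differed between the groups. Per kilobase of transcript, Saa1 made up 48.2% ± 1.37 (SD, n = 3) of family reads in WT, 23.5% ± 6.57 in dHep and 30.8% ± 1.504 in the KO-labelled libraries. Saa4 made up 29.4%, 21.3% and 27.8% across WT, 66.0%, 58.6% and 77.1% in dHep and 62.4%, 51.7% and 55.4% in the KO-labelled libraries. Per kilobase, the constitutive gene was thus below Saa1 in every WT library and above it in every other library. This WT order rests on the scaling by length. Without it, Saa4 made up 58.3%, 47.6% and 56.3% of family reads across WT, above Saa1 at 27.8%, 33.1% and 29.2%. The per-kilobase ratio of Saa4 to Saa1 was 0.544 ± 0.103 in WT, 3.11 ± 1.36 in dHep and 1.85 ± 0.27 in the KO-labelled libraries. The WT ratios did not overlap the others (two-sided exact permutation p = 0.1 for each, the smallest that 3 against 3 allows; 0.167 adjusted over 15 ratio comparisons).

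**Figure D3:**
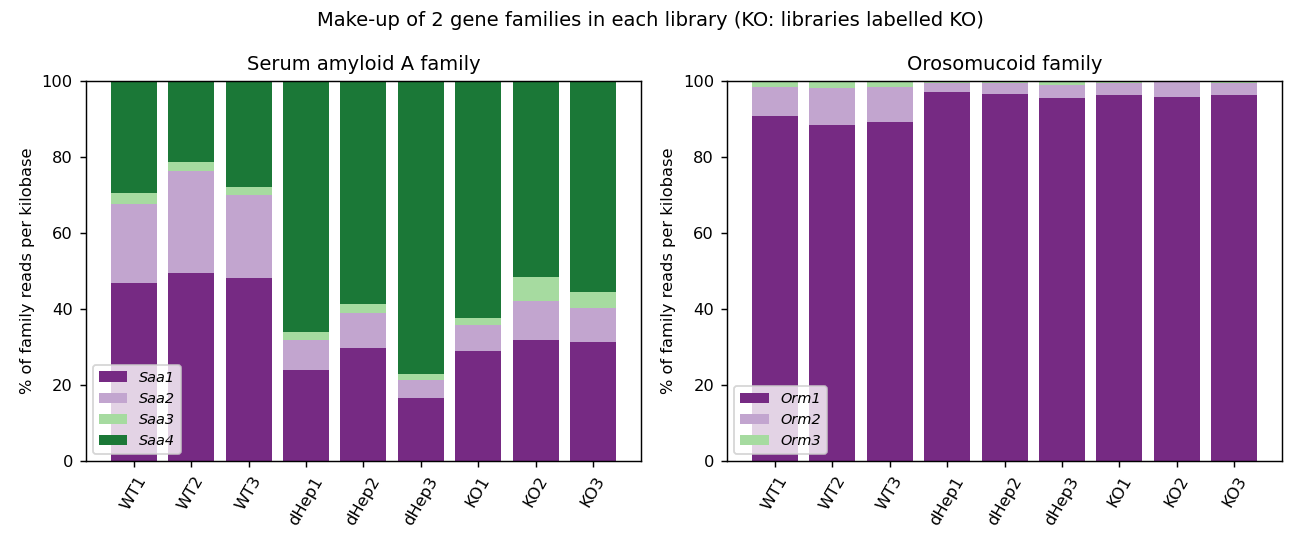
Share of each gene in its family's reads per kilobase (vertical axes, percent) in each library (horizontal axes) for the serum amyloid A genes and the orosomucoid genes. Saa4 fills 21.3% to 29.4% of the bar in WT and at least 51.7% in all other libraries, while Orm2 fills at least 7.83% in WT and at most 3.79% elsewhere.

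Orm1 and Orm2 encode orosomucoids, also named alpha-1-acid glycoproteins, which carry lipophilic compounds in plasma. Orm1 was at 654, 771 and 663 CPM in WT, 436, 458 and 809 CPM in dHep and 656, 706 and 901 CPM in the KO-labelled libraries. All groups overlapped, since dHep replicate 3 stood above every WT library while the other dHep libraries stood below. The Orm1 difference was -0.29 ± 0.24 in dHep against WT (edgeR adjusted p = 0.392), 0.12 ± 0.24 in the KO-labelled libraries against WT (edgeR adjusted p = 0.715) and 0.41 ± 0.24 between the KO-labelled libraries and dHep (edgeR adjusted p = 0.283). Without dHep replicate 3, the first difference was -0.64 (edgeR adjusted p = 0.0235) and the third 0.76 (edgeR adjusted p = 0.0151).

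Orm2 was at 56.9, 86.3 and 68.6 CPM in WT, 11.4, 14.5 and 27.4 CPM in dHep and 20.8, 28.1 and 31.9 CPM in the KO-labelled libraries. As for Saa2, WT libraries lay above all others and the other groups overlapped. Orm2 fell in dHep (log2 fold change -2.00 ± 0.32, edgeR adjusted p = 0.00299) and in the KO-labelled libraries (-1.39 ± 0.31, edgeR adjusted p = 0.00634). The libraries labelled KO and dHep differed by 0.61 ± 0.31 (edgeR adjusted p = 0.229), and by 1.06 without dHep replicate 3 (edgeR adjusted p = 0.0182). The per-kilobase ratio of Orm1 to Orm2 was 11.6, 9.01 and 9.74 in WT, 38.7, 31.9 and 29.8 in dHep and 31.8, 25.3 and 28.5 in the KO-labelled libraries. The WT ratios lay below all others (exact permutation p = 0.1 for each comparison, the smallest possible, and 0.167 adjusted over 15 ratio comparisons). Orm3, the neighbour between them, was at a mean of 13.04 CPM in WT, 4.81 CPM in dHep and 3.19 CPM in the KO-labelled libraries, and fell in the last (-2.03 ± 0.51, edgeR adjusted p = 0.0108) while the dHep difference was -1.46 ± 0.49 (edgeR adjusted p = 0.0568).

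Hp encodes haptoglobin, which binds free haemoglobin for uptake through the macrophage receptor CD163. It was at 3250, 4003 and 3467 CPM in WT, 2155, 2574 and 3295 CPM in dHep and 2967, 3307 and 3195 CPM in the KO-labelled libraries. The groups overlapped, with dHep replicate 3 inside the WT range. Hp differed by -0.42 ± 0.19 in dHep against WT (edgeR adjusted p = 0.135), by -0.18 ± 0.19 in the KO-labelled libraries against WT (edgeR adjusted p = 0.463) and by 0.24 ± 0.19 between the latter and dHep (edgeR adjusted p = 0.432). Leaving out dHep replicate 3 brought the first to -0.60 (edgeR adjusted p = 0.0296). Hp alone supplied 54.1% to 65.9% of the members' reads. As a share of assigned reads, unscaled, all 10 members together made up 0.563% to 0.665% across WT, 0.390% to 0.491% in dHep and 0.493% to 0.547% in the KO-labelled libraries. With scaled library sizes the groups overlapped, at summed levels of 5183 to 6215 CPM in WT, 3568 to 5569 CPM in dHep and 5160 to 5900 CPM in the KO-labelled libraries.

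Lcn2 encodes lipocalin 2, which withholds iron from bacteria by binding their siderophores and is made by hepatocytes and neutrophils. It was at 42.0, 69.5 and 42.8 CPM in WT, 4.38, 6.02 and 6.42 CPM in dHep and 9.02, 14.5 and 17.9 CPM in the KO-labelled libraries. No 2 groups overlapped, and the KO-labelled libraries lay between dHep and WT. Lcn2 fell in dHep (log2 fold change -3.20 ± 0.30, edgeR adjusted p = 3.3e-04) to 10.9% of the WT mean. It also fell in the KO-labelled libraries against WT (-1.90 ± 0.28, edgeR adjusted p = 0.00103), and it was higher in these than in dHep (1.30 ± 0.29, edgeR adjusted p = 0.0252). The last call was lost in 7 of 17 alternatives, among them those without dHep replicate 1, dHep replicate 2, KO replicate 2 or KO replicate 3 (edgeR adjusted p = 0.0602, 0.0536, 0.0813 and 0.0928). The 13 neutrophil markers in the table, of 14 listed, summed to 6.99 to 11.6 CPM in WT, 6.47 to 13.7 CPM in dHep and 3.62 to 5.02 CPM in the KO-labelled libraries. Of 5 neutrophil markers tested, 0 were called in dHep against WT, where 12.4% of all genes rose and 11.9% fell. In the KO-labelled libraries 4 fell against WT and 4 against dHep, where 22.1% and 5.39% of all genes fell. S100a8, an abundant neutrophil transcript, was counted at 35, 58 and 41 reads in WT and 82, 41 and 28 reads in dHep, and Mpo at 2 reads at most in any library. Their part in the Lcn2 level was not tested.

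Lbp encodes the lipopolysaccharide-binding protein, which passes bacterial lipopolysaccharide to CD14 and the receptor TLR4. It was at 73.9, 81.9 and 81.2 CPM in WT, 64.6, 65.6 and 56.1 CPM in dHep and 90.6, 86.7 and 108 CPM in the KO-labelled libraries. The 3 groups were in separate ranges, with dHep lowest. Lbp rose between dHep and the KO-labelled libraries (log2 fold change 0.61 ± 0.11, edgeR adjusted p = 0.0112), and lost this call when only these groups were fitted (edgeR adjusted p = 0.0562). It was lower in dHep than in WT (-0.35 ± 0.11, edgeR adjusted p = 0.0453), but this call was lost in 12 of 17 alternatives (edgeR adjusted p up to 0.150, without WT replicate 2), among them each of those that left out a WT library. In the KO-labelled libraries it differed from WT by 0.27 ± 0.11 (edgeR adjusted p = 0.0732) and passed the threshold in 3 of 17 alternatives, 1 of them without dHep replicate 3 (edgeR adjusted p = 0.0459). Without that library, which is in neither group compared, the difference stayed at 0.27 with an SE of 0.10. The downstream genes Cd14 and Tlr4 were at low levels: Cd14 fell in dHep (-1.86 ± 0.37, edgeR adjusted p = 0.00795) and in the KO-labelled libraries (-2.14 ± 0.38, edgeR adjusted p = 0.00238), and Tlr4 fell in the latter (-2.72 ± 0.43, edgeR adjusted p = 0.00134) with a dHep difference of -1.16 ± 0.39 (edgeR adjusted p = 0.0567).

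Crp encodes C-reactive protein, a pentraxin that binds phosphocholine on microbes and damaged cells and that is only weakly inducible in mice, where the related pentraxin serum amyloid P (gene Apcs) is the stronger reactant. Crp was at 410, 384 and 391 CPM in WT, 348, 471 and 491 CPM in dHep and 514, 474 and 529 CPM in the KO-labelled libraries. The libraries labelled KO stood above WT, and dHep overlapped both. The Crp difference from WT was 0.15 ± 0.14 in dHep (edgeR adjusted p = 0.471) and 0.36 ± 0.14 in the KO-labelled libraries (edgeR adjusted p = 0.0610), and these differed from dHep by 0.21 ± 0.14 (edgeR adjusted p = 0.339). Crp passed the threshold against WT in 5 of 17 alternatives for the KO-labelled libraries, among them those without dHep replicate 1 (edgeR adjusted p = 0.00848) or dHep replicate 3 (edgeR adjusted p = 0.0364). Neither library is in the groups compared, and the difference stayed at 0.36, with an SE of 0.08 and 0.12. Apcs was at 83.1, 92.0 and 94.8 CPM in WT, 57.6, 62.4 and 42.5 CPM in dHep and 70.6, 93.7 and 99.4 CPM in the KO-labelled libraries. Apcs fell in dHep (-0.73 ± 0.16, edgeR adjusted p = 0.0126) and was higher in the KO-labelled libraries than in dHep (0.70 ± 0.17, edgeR adjusted p = 0.0306).

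Scaled by transcript length, haptoglobin led in all groups, with 2657 ± 288 CPM per kilobase in WT (SD, n = 3), 1989 ± 429 in dHep and 2347 ± 129 in the KO-labelled libraries. Orm1 came next in each group, at 906 ± 84.6 in WT. The WT order then ran Saa1 (344 ± 93.2), Crp (232 ± 7.98), Saa4 (182 ± 25.1), Saa2 (167 ± 64.3), Orm2 (91.2 ± 19.1), Lcn2 (60.3 ± 18.4), Lbp (31.3 ± 1.75) and Saa3 (18.2 ± 5.24). Of these neighbours, Saa4 and Saa2 overlapped over the libraries, as did Orm2 and Lcn2. In dHep, Saa4 followed Orm1 (320 ± 82.6) and Lcn2 the last (6.58 ± 1.27), with overlaps of Saa4 with Crp, of Saa2 with Lbp, of Lbp with Orm2 and of Saa3 with Lcn2. In the KO-labelled libraries, Saa4 again followed Orm1 (398 ± 39.8), ahead of Crp (298 ± 16.9) and Saa1 (219 ± 39.0), and each of the last 5 genes, from Saa2 down to Lcn2, overlapped its neighbour. On this scale, Saa2 ranked 6 in every group, while Saa1 ranked above Saa4 in WT and below it in the other groups. By mean CPM, without scaling by length, Saa4 ranked 4 and Saa1 ranked 5 in WT. The plot of length-scaled levels shows these orders.

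**Figure D4:**
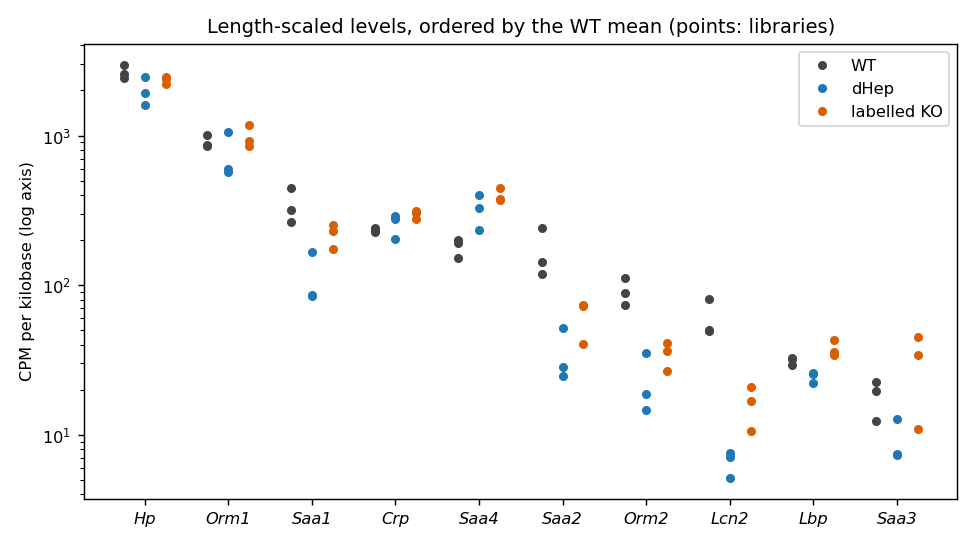
CPM per kilobase (vertical log axis) of the 10 genes, ordered by the WT mean (horizontal axis); each point is 1 library, coloured by group. Hp is highest in all groups (WT mean 2657) and Saa3 lowest in WT (18.2), while Lcn2 is lowest in dHep (6.58).

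Among 25 other positive acute-phase genes of liver, all tested, 1 rose and 6 fell in dHep against WT, where 12.4% and 11.9% of all genes did. In the KO-labelled libraries against WT 6 rose and 8 fell, where 20.9% and 22.1% of all genes did. Between the KO-labelled libraries and dHep 3 rose and 1 fell, where 4.23% and 5.39% of all genes did. The list's median log2 fold changes were 0.04, 0.01 and 0.23. The interleukin 1 receptor antagonist gene Il1rn, which the response induces, fell in dHep (-1.83 ± 0.26, edgeR adjusted p = 0.00196) and in the KO-labelled libraries (-2.35 ± 0.27, edgeR adjusted p = 3.8e-04). Ceruloplasmin (Cp), a copper-carrying ferroxidase, fell in dHep (-0.78 ± 0.16, edgeR adjusted p = 0.00930). Hamp, which encodes the iron hormone hepcidin, was the 1 gene of the list that rose in dHep (1.42 ± 0.37, edgeR adjusted p = 0.0237), with 247, 247 and 244 CPM in WT and 356, 969 and 649 CPM in dHep. In the KO-labelled libraries, Lrg1 (leucine-rich alpha-2-glycoprotein) rose by 1.502 ± 0.211 (edgeR adjusted p = 8.0e-04), Serpina3m (a serine protease inhibitor of a multigene cluster, whose copies share sequence) by 1.27 ± 0.23 (edgeR adjusted p = 0.00248) and Itih3 by 0.64 ± 0.13 (edgeR adjusted p = 0.00472), while Serpina3g, of the same cluster, did the opposite (-1.73 ± 0.25, edgeR adjusted p = 8.7e-04). Lrg1 and Serpina3m were also above dHep there (1.07 ± 0.21 and 1.13 ± 0.23, edgeR adjusted p = 0.0157 and 0.0176), while the metallothionein gene Mt1 was below it (-1.82 ± 0.40, edgeR adjusted p = 0.0248). Serpina3g also fell in dHep against WT (-1.08 ± 0.24, edgeR adjusted p = 0.0116).

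Of 13 negative acute-phase genes, 5 rose and 0 fell in dHep against WT (12.4% and 11.9% of all genes). In the KO-labelled libraries against WT 7 rose and 1 fell (20.9% and 22.1% of all genes). Between the KO-labelled libraries and dHep 0 rose and 1 fell (4.23% and 5.39% of all genes). The medians were 0.44, 0.59 and 0.11. The fetuin gene Fetub rose in dHep (1.35 ± 0.22, edgeR adjusted p = 0.00332) and in the KO-labelled libraries (1.49 ± 0.22, edgeR adjusted p = 9.5e-04). Apoa1, the main protein of high-density lipoprotein, rose as well (1.02 ± 0.18 and 1.13 ± 0.18, edgeR adjusted p = 0.00517 and 0.00152), as did the fetuin gene Ahsg (1.03 ± 0.18 and 0.94 ± 0.18, edgeR adjusted p = 0.00460 and 0.00315). Serpina6, the corticosteroid-binding globulin gene, was lower in the KO-labelled libraries than in WT (-0.69 ± 0.25, edgeR adjusted p = 0.0495) and than in dHep (-1.30 ± 0.26, edgeR adjusted p = 0.0160). Alb, the albumin gene, differed by 0.28 ± 0.33 in dHep and -0.05 ± 0.33 in the KO-labelled libraries against WT (edgeR adjusted p = 0.566 and 0.924).

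Of 12 listed genes for inducing cytokines, 5 passed the filter on low counts and were tested. Of these, 1 rose and 0 fell in dHep against WT (12.4% and 11.9% of all genes). In the KO-labelled libraries against WT 0 rose and 3 fell (20.9% and 22.1% of all genes). Between the KO-labelled libraries and dHep 0 were called (4.23% of all genes rose and 5.39% fell). Il6 was counted at 1 read in dHep replicate 1, 1 read in dHep replicate 2 and 0 reads in all other libraries, which allows up to 0.173 CPM at the least depth (3 reads). Il1b was counted at 71, 82 and 90 reads in WT, 72, 43 and 18 in dHep and 16, 33 and 19 in the KO-labelled libraries, and fell in the last (-1.41 ± 0.36, edgeR adjusted p = 0.0112), with a dHep difference of -0.88 ± 0.34 (edgeR adjusted p = 0.0881). Il33 and Il1a also fell there (-1.25 ± 0.34 and -1.07 ± 0.32, edgeR adjusted p = 0.0161 and 0.0221). Tnf had 12, 11 and 12 reads in WT, 5, 2 and 1 in dHep and 1, 0 and 7 in the KO-labelled libraries, and was not called (edgeR adjusted p = 0.0996 and 0.143 against WT). Il18, a cytokine of the interleukin 1 family, rose in dHep (0.70 ± 0.13, edgeR adjusted p = 0.00576).

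Of 26 cytokine receptor and signalling genes, 25 were tested. In dHep against WT 4 rose and 3 fell (12.4% and 11.9% of all genes). In the KO-labelled libraries against WT 3 rose and 6 fell (20.9% and 22.1% of all genes). Between the KO-labelled libraries and dHep 0 rose and 1 fell (4.23% and 5.39% of all genes). The medians were -0.10, -0.13 and -0.08. Lifr, the receptor subunit for leukaemia inhibitory factor and oncostatin M, was at 95.6, 80.6 and 79.6 CPM in WT, 342, 311 and 292 CPM in dHep and 299, 565 and 559 CPM in the KO-labelled libraries, and rose in both (1.89 ± 0.22 and 2.48 ± 0.23, edgeR adjusted p = 9.1e-04 and 1.9e-04). Il11ra1 and the interleukin 1 receptor accessory gene Il1rap rose in dHep (0.86 ± 0.14 and 0.92 ± 0.16, edgeR adjusted p = 0.00317 and 0.00449), while the oncostatin M receptor gene Osmr fell (-1.17 ± 0.35, edgeR adjusted p = 0.0368). Il11ra1 and Il1rap also rose in the KO-labelled libraries against WT (0.98 ± 0.14 and 0.75 ± 0.16, edgeR adjusted p = 8.2e-04 and 0.00511). Il6st, which encodes gp130, fell in the KO-labelled libraries against WT (-0.94 ± 0.22, edgeR adjusted p = 0.00857), as did the kinase gene Jak1 (-0.61 ± 0.12, edgeR adjusted p = 0.00346), with an Il6st difference of -0.31 ± 0.22 in dHep (edgeR adjusted p = 0.335). Il6ra, the interleukin 6 receptor gene, was lower in the KO-labelled libraries than in dHep (-1.63 ± 0.43, edgeR adjusted p = 0.0442), with dHep values of 16.6, 56.1 and 32.2 CPM. Stat3 and its feedback target Socs3 were not called in any comparison: in dHep against WT they differed by 0.30 ± 0.20 and 0.89 ± 0.66 (edgeR adjusted p = 0.311 and 0.354).

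Among 20 transcription factors of the response, 4 rose and 1 fell in dHep against WT (12.4% and 11.9% of all genes). In the KO-labelled libraries against WT 6 rose and 1 fell (20.9% and 22.1% of all genes). Between the KO-labelled libraries and dHep 1 rose and 0 fell (4.23% and 5.39% of all genes). The medians were 0.27, 0.19 and 0.04. Cebpb, a C/EBP factor that inflammation induces, was at 5.63, 6.34 and 5.77 CPM in WT and 6.99, 11.4 and 16.2 CPM in dHep, where it rose (0.95 ± 0.28, edgeR adjusted p = 0.0339). The NF-kB subunit gene Relb fell in dHep (-1.002 ± 0.237, edgeR adjusted p = 0.0152), while in the KO-labelled libraries Rela and Bcl3 rose (0.71 ± 0.09 and 1.28 ± 0.21, edgeR adjusted p = 6.3e-04 and 0.00155) and Nfkb2 fell (-0.49 ± 0.17, edgeR adjusted p = 0.0437). Rela was also above dHep there (0.61 ± 0.09, edgeR adjusted p = 0.00648). Cebpd, Nfkb1 and Hnf4a were not called: against WT, the dHep differences were 0.63 ± 0.48, -0.24 ± 0.09 and 0.31 ± 0.13 (edgeR adjusted p = 0.367, 0.0898 and 0.105).

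Of 23 receptors and partners through which acute-phase proteins act, 22 were in the table and 20 were tested. In dHep against WT 3 rose and 5 fell (12.4% and 11.9% of all genes). In the KO-labelled libraries against WT 3 rose and 12 fell (20.9% and 22.1% of all genes). Between the KO-labelled libraries and dHep 1 rose and 4 fell (4.23% and 5.39% of all genes). The medians were -0.41, -1.30 and -0.72. Cd36, a scavenger receptor for serum amyloid A and lipids, was at 485, 577 and 555 CPM in WT, 66.9, 75.5 and 104 CPM in dHep and 65.8, 67.0 and 91.4 CPM in the KO-labelled libraries, and fell in both (-2.71 ± 0.20 and -2.85 ± 0.20, edgeR adjusted p = 1.0e-04 and 5.1e-05). Tlr2 fell in dHep (-1.61 ± 0.38, edgeR adjusted p = 0.0155). The immunoglobulin receptor gene Fcgr3, through which pentraxins act, and the haem oxygenase gene Hmox1 fell in the KO-labelled libraries (-1.99 ± 0.23 and -1.47 ± 0.20, edgeR adjusted p = 3.8e-04 and 7.7e-04). Lrp1, which takes up haem bound to hemopexin, and Scarb1, a lipoprotein receptor, rose in dHep (0.59 ± 0.11 and 0.48 ± 0.11, edgeR adjusted p = 0.00616 and 0.0144). Both also rose in the KO-labelled libraries against WT (0.85 ± 0.11 and 0.79 ± 0.11, edgeR adjusted p = 6.4e-04 and 8.1e-04). Lrp2, the endocytic receptor for lipocalin 2, had 9, 9 and 7 reads in WT and 109, 186 and 173 in the KO-labelled libraries (4.65 ± 0.68, edgeR adjusted p = 9.3e-04). Lrp2 also rose in dHep against WT (2.29 ± 0.68, edgeR adjusted p = 0.0378). The haptoglobin receptor gene Cd163 and the lipocalin 2 receptor gene Slc22a17 were not called in any comparison (against WT in dHep, 1.38 ± 0.60 and 0.65 ± 0.34, edgeR adjusted p = 0.124 and 0.195). Fcgr1 and Fcgr3 are known as macrophage genes. Both were lower than WT in dHep and in the KO-labelled libraries. Of 15 macrophage markers tested, 7 fell in dHep and 11 in the KO-labelled libraries, where 11.9% and 22.1% of all genes fell. In either comparison 0 markers rose, where 12.4% and 20.9% of all genes rose. The part of these markers in the changes above was not tested.

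For each member, the gene with the most similar profile was sought among 13131 other tested genes by Pearson's r of log2 CPM over the 9 libraries. These libraries form 3 groups, so r also reflects the differences between groups, and it is given as a description only. Lcn2 was most like Gpnmb (r = 0.988), which was at 11.2, 13.6 and 10.3 CPM in WT, 0.300, 0.482 and 0.441 CPM in dHep and 0.517, 1.94 and 2.19 CPM in the KO-labelled libraries. Gpnmb is one of the macrophage markers listed. Saa1 was most like Itm2c (0.968), Saa2 like Inhbb (0.969), Saa3 like Cd248 (0.956) and Saa4 like Cyp2d10 (0.988), a hepatic cytochrome P450 gene. Orm1 was most like Cfl1 (0.978), Orm2 like A4gnt (0.986), Hp like Pigk (0.962), Lbp like Fbxw7 (0.986) and Crp like Clptm1 (0.981). F2rl1 itself ranked 3 in likeness to Lbp (0.943). The genes named are the extremes of a search, and 5% of all genes had r above 0.806 with Lcn2 and above 0.663 with Lbp.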

How the data were processed

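Raw counts per gene and library were deposited by the authors in 1 table with 23337 genes, made with featureCounts 1.6.2 at strand setting 2 on an mm10 annotation, per the file headers. The Length column, of another unit (gene length in bases), was deposited with it and was used here to scale levels. Reads were checked with FastQC, aligned with HISAT2 2.1.0 to mm10 and tested with DESeq2, per the submitters' processing notes; those results were not used here. Depth was 18683660 to 30509242 reads per library, and 0 pairs of libraries held identical values.

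Genes kept by filterByExpr (minimum count 10, minimum total 15) were tested with the quasi-likelihood F test of edgeR 4.0.16 in R 4.3.3, fitted to all 9 libraries at once with TMM factors (0.883 to 1.10) and a mean per group. P-values were adjusted by the Benjamini-Hochberg method over 13141 genes, with a threshold of 0.05, and rose, fell, higher and lower as calls refer to it. Errors of log2 fold changes are SE. CPM uses TMM-scaled library sizes of 1e+06 reads, and the floor for a count of 0 is 3 reads. The test was tried beforehand on simulated data with changes of known size, and the outcome is not reported here. Ratios of family members were compared by two-sided exact permutation tests. The p-values weigh differences between groups against the spread between the sampled mice.

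The members and lists were chosen with earlier results of these data known. Named genes are all members, F2rl1, up to 3 called genes per direction, list and comparison with the smallest p, of which a part is printed (1 gene of the transcription factor list is not reported here), and 18 fixed genes of the pathway. S100a8, Mpo and the macrophage marker Gpnmb were named after their values had been seen. Motifs were searched as exact letters on both strands. Alternatives were median-of-ratios size factors, the DESeq2 1.42.0 Wald test, limma 3.58.1 voom with quality weights, no filter, a filter of 1 CPM in 3 libraries, a fit of the compared groups alone, a replicate block and leaving out each library. The joint omission of WT replicate 1 and dHep replicate 2 was chosen after seeing the data. Promoters come from RefSeq (GRCm38.p6).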

Additional observations from a re-analysis of the deposited data

How the results depend on the processing

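Over 510 combinations of a member, a comparison and an alternative, 451 kept their direction and side of the threshold, 34 lost a call, 24 gained one and 1 changed sign (Orm1 in the KO-labelled libraries against WT, -0.029 without KO replicate 3; its range over libraries left out was -0.029 to 0.225, never called). The falls of Saa1, Saa2, Orm2 and Lcn2 in dHep against WT, and the changes of Saa2, Saa4, Orm2 and Lcn2 in the KO-labelled libraries against WT, passed the threshold in all 17 alternatives. Members called higher in the KO-labelled libraries against WT numbered 2 with DESeq2, 3 with limma voom and 3 with only the compared groups in the fit, in place of 1, and 1 to 3 when 1 library was left out; over all genes, either direction, these 3 alternatives called 5925, 8202 and 7520 in place of 5653. Members called higher in the KO-labelled libraries against dHep numbered 1 with limma voom and 0 with only the compared groups (where edgeR made 342 calls over all genes), in place of 3, and 1 to 4 when 1 library was left out. Members called higher in dHep against WT numbered 0 to 1 when 1 library was left out. Over all genes, calls between the KO-labelled libraries and dHep numbered 1264, and 2068 with DESeq2, 802 with limma voom, 342 with only the compared groups and 495 without WT replicate 1 and dHep replicate 2. Leaving out 1 library gave 386 to 2809 calls there, 1359 to 4025 in dHep against WT (3192 with all libraries) and 3835 to 6547 in the KO-labelled libraries against WT (5653). The labels do not say whether replicate numbers pair the mice. Deviations from the group means had r of -0.272 to 0.027 between same-numbered libraries and of -0.140 to 0.273 between differently numbered ones. Such deviations sum to 0 within each group of 3, so these values cannot decide it. With a replicate block, 2781, 5292 and 954 genes were called in the 3 comparisons, and members higher in the KO-labelled libraries against dHep numbered 4. With 3 mice a group, differences of members that missed the threshold were not shown to be absent, and the causes of lost calls were not tested.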
